A study of Mus musculus with 9 samples.

Results

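Smooth muscle of the myometrium is described here through 37 genes of contraction and calcium handling, selected by symbol from the 31274 entries of a uterine expression table. The list holds 14 genes of the contractile apparatus, 12 of dense bodies and cell adhesion, 9 of ion channels, calcium stores and the oxytocin receptor, and 2 transcription factors. Membership was set by gene name, but with earlier results of these data known, so that the list as a set was not tested. The question was how these transcripts differed between control uteri and uteri that had lost the kinase WNK1.

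RNA-Seq was performed on whole uterus of C57BL/6 mice on pseudopregnancy day 4.5, during the receptive phase, with 1 library from each of 4 Wnk1f/f and 5 Wnk1d/d females. Both genotypes carried *Wnk1* alleles with loxP sites around an exon. In Wnk1d/d mice Cre was expressed from the progesterone receptor locus, whereas the labels give no Cre for Wnk1f/f mice. Virgin females aged 6 to 10 weeks were used in the timed matings of the study, and pseudopregnancy was induced with vasectomized males, so that no embryo contributed RNA. Cre from this locus acts in progesterone receptor-positive cells, which include epithelium, stroma and myometrium but also cells of the ovary and pituitary. Excision was therefore neither specific to muscle nor restricted to the uterus. Each library was a separate mouse, and the values are FPKM, fragment counts scaled to exon length and to library size, so that levels of genes can be compared per length.

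Smooth muscle contracts when calcium enters through voltage-gated channels or leaves the sarcoplasmic reticulum, binds calmodulin and activates myosin light chain kinase. Phosphorylated myosin pulls on actin filaments that are anchored in dense bodies and in adhesion plaques at the membrane. Potassium channels, cGMP-dependent kinase and myosin phosphatase oppose contraction, and in the uterus oxytocin drives it through its receptor. Many of these genes are controlled by serum response factor (SRF) with its cofactor myocardin.

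The targeted gene was lower in every Wnk1d/d library, at 31.2 ± 1.62 FPKM (SD, n = 5) against 45.3 ± 1.62 FPKM (SD, n = 4). Exons that the deletion leaves in place still count toward this FPKM. The median log2(FPKM + 1) of tested genes was 3.80 to 3.82 in the 9 libraries. Libraries stood apart in other ways. Wnk1f/f replicate 4 contained liver transcripts, with *Alb* at 77.7 FPKM against at most 1.5 FPKM elsewhere, and a single entry took 70.3% of the summed FPKM of Wnk1d/d replicate 4. The counts of genes called are therefore also given without these libraries. Of the defining transcripts of smooth muscle, *Myh11*, *Tagln*, *Cnn1* and *Des* were at 177 FPKM or higher in all 9 libraries. These are genes of the list, so that their level does not test the label for its other members.

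The smooth muscle transcripts were more abundant in Wnk1d/d uteri. Of the 37 genes, 36 had a mean above 1 FPKM in at least 1 genotype and were tested, and *Ryr2* was below it. A total of 28 of the 36 rose (limma adjusted p under 0.05 over 14728 genes, the threshold past which a gene is called here), which is 77.8%, and 0 fell, where 11.1% of all tested genes rose, 11.0% fell and 22.1% did either. At an unadjusted p under 0.05, 0 of them were lower by limma. A total of 26 of the 36 (72.2%) also differed 1.5-fold or more in mean FPKM, where 5.09% of all tested genes did so upward and 5.18% downward. Libraries of the genotypes did not overlap for 21 genes (58.3%), against 9.27% of all tested genes that were higher in Wnk1d/d without overlap. *Sgcd* passed the expression filter only through its level in Wnk1d/d uteri, so that its call adds no support. It is included in the counts of 28, 26 and 21 genes. The log2 fold change of log2(FPKM + 1) was above 0 for each of the 36 genes, with a median of 0.83 and a range from 0.17 to 1.41, whereas the median of all tested genes was 0.003 and 80% of them lay between -0.43 and 0.42. Means are given ± SD over the 4 Wnk1f/f or 5 Wnk1d/d libraries. In whole tissue, more muscle cells, more RNA per muscle cell and less RNA from other cells cannot be told apart, because FPKM is scaled to library size.

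The number of genes that rose depended on single libraries. It was 17 without Wnk1f/f replicate 4, 18 without Wnk1f/f replicate 2, 18 without Wnk1d/d replicate 3, 23 without Wnk1d/d replicate 4 and 10 without both replicates numbered 4. In these fits the share of all tested genes that rose was also lower than 11.1%, at 5.66%, 8.27%, 5.85%, 7.53% and 3.64%. The median log2 fold change of the 36 genes in them was 0.72, 0.80, 0.85, 0.79 and 0.67. When 1 library at a time was left out, the count over the 9 fits ran from 17 to 31, and 16 genes, *Sgcd* among them, rose in each of them. The other 12 of the 28 (*Myh11*, *Tagln*, *Smtn*, *Lmod1*, *Tpm1*, *Prkg1*, *Pdlim3*, *Pdlim7*, *Ldb3*, *Synm*, *Kcnma1* and *Casq2*) lost the call in at least 1 of these fits.

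Of the 2 transcription factors, 1 rose and 1 did not pass the test. *Myocd* encodes myocardin, the cofactor of SRF that is largely restricted to smooth and cardiac muscle. Its FPKM was 3.51, 1.98, 2.92 and 1.98 in Wnk1f/f and 4.68, 4.91, 6.77, 6.95 and 7.61 in Wnk1d/d libraries. All 5 Wnk1d/d values lay above the highest control, and mean FPKM rose 2.38-fold (log2 fold change 1.0 ± 0.17, the standard error (SE), limma adjusted p = 0.0066). *Srf*, the DNA-binding factor itself, was at 52.4, 44.1, 39.8 and 32.8 FPKM in Wnk1f/f and 44.3, 44.0, 54.6, 59.2 and 52.0 FPKM in Wnk1d/d libraries. These ranges overlapped, and the log2 fold change of 0.27 (standard error 0.14) did not pass the test (limma adjusted p = 0.18).

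SRF binds the CArG box, and its strict form was searched in RefSeq promoter windows from 250 bases before to 50 bases after each annotated start on GRCm38.p6, the assembly of mm10. The pattern reads the same on both strands, so that both were covered. Windows were present for 33 of the 37 genes, and those without one were *Itpr1*, *Myh11*, *Tagln* and *Myocd*. At least 1 box was found in 5 of the 33 genes (15.2%) and in 488 of all 27025 genes with a window (1.81%), or in 14.0% and 1.63% of windows. A match describes letters only, and binding was not measured. The stretches around the boxes are shown because boxes of this kind are what SRF is known to bind, with the box in capitals and each read 5′ to 3′ on the strand of its gene, upstream of the start, where all boxes of the list lay. The stretches are those of *Myl9* at chr2:156775233-156775332 (+), *Vcl* at chr14:20929148-20929200 (+), *Ldb3* at chr14:34588687-34588786 (-), *Srf* itself at chr17:46556195-46556314 (-) and *Dmd* at chrX:82948702-82948801 (+).
Myl9: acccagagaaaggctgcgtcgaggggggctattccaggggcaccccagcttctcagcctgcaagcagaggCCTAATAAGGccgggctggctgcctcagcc
Vcl: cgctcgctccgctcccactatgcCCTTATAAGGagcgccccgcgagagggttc
Ldb3: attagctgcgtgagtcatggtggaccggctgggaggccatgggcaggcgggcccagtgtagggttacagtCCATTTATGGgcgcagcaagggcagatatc
Srf: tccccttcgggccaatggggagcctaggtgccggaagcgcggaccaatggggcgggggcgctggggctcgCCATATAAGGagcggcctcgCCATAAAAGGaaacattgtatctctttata
Dmd: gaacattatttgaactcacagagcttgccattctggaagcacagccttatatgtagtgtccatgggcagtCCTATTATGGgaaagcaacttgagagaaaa

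The first box began 161 bases before the start in *Myl9*, 227 in *Vcl*, 35 in *Ldb3* (109 from a second annotated start of this gene), 82 in *Srf* and 98 in *Dmd*, and the *Srf* stretch held 2 boxes. Of these 5 genes, *Myl9*, *Vcl* and *Ldb3* rose, and *Srf* and *Dmd* did not pass the test. The stretches thus come from genes on both sides of the threshold.

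**Figure D1:**
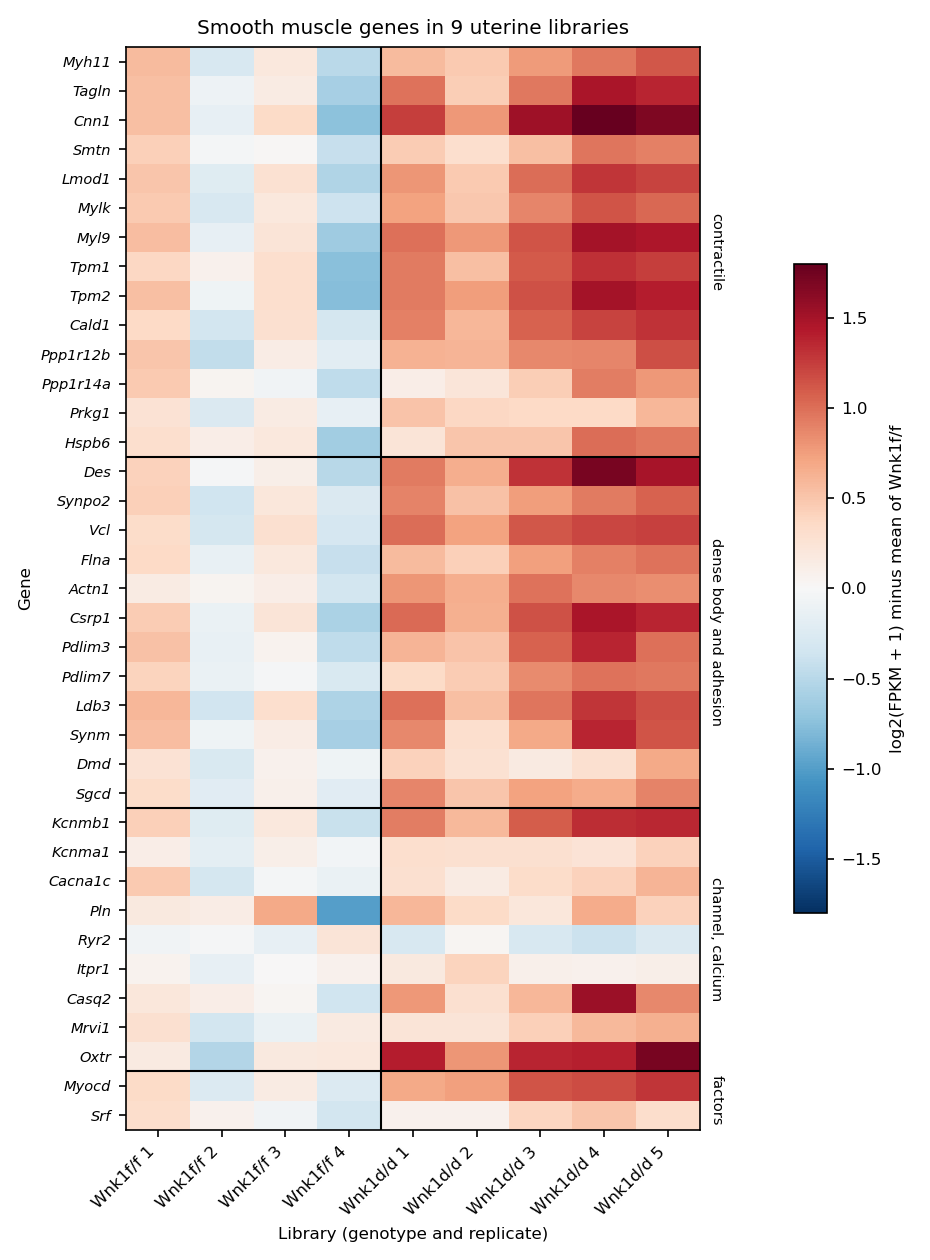
Each tile is log2(FPKM + 1) of 1 gene (vertical axis, by role) in 1 library (horizontal axis, by genotype and replicate) minus the mean of the Wnk1f/f libraries, from blue (lower) to red (higher). Most tiles of the 5 Wnk1d/d libraries are red and Wnk1f/f replicates 2 and 4 are mostly blue, while *Ryr2*, *Itpr1*, *Srf* and *Dmd* stay pale.

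Of the 14 contractile genes, 12 rose, 0 fell and 2 did not pass the test, with a median log2 fold change of 0.90. Without Wnk1f/f replicate 4, without Wnk1d/d replicate 4 and without both, 7, 9 and 2 rose. Of all tested genes 11.1% rose with every library, and 5.66%, 7.53% and 3.64% in these fits. *Myh11*, the smooth muscle myosin heavy chain (chromosome 16, 14194535 to 14291372, minus strand, mm10), was at 694, 385, 536 and 336 FPKM in Wnk1f/f and 698, 651, 795, 906 and 1022 FPKM in Wnk1d/d libraries. Wnk1f/f replicate 1 was above Wnk1d/d replicate 2, so that the genotypes overlapped. The mean rose 1.67-fold (log2 fold change 0.78 ± 0.22 SE, limma adjusted p = 0.035). *Myl9*, the regulatory light chain whose phosphorylation starts contraction, had values of 936, 574, 746 and 408 FPKM in controls and 1266, 1096, 1398, 1803 and 1739 FPKM in Wnk1d/d uteri. Here the genotypes were separate, with means of 666 ± 227 (SD, n = 4) and 1460.3 ± 304 FPKM (SD, n = 5) and a log2 fold change of 1.17 (standard error 0.25, limma adjusted p = 0.012). Its permutation p was 0.0079 (exact, two-sided), the smallest value possible for 4 against 5 libraries.

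*Cnn1* had the highest log2 fold change of the list on the scale of log2(FPKM + 1), while *Oxtr* was higher by the ratio of mean FPKM, with smaller pseudocounts and without either replicate numbered 4. *Cnn1* encodes calponin, which binds actin and slows the myosin ATPase (chromosome 9, 22099216 to 22109630, plus strand, mm10). Its FPKM was 432, 268, 378 and 177 in Wnk1f/f and 705, 509.6, 854, 1070.1 and 954 in Wnk1d/d libraries. The highest values belonged to Wnk1d/d replicates 4 and 5, the lowest to Wnk1f/f replicate 4, and no values overlapped. The mean was 2.61-fold higher (log2 fold change 1.41 ± 0.29 SE, limma adjusted p = 0.011). *Tagln*, the actin-binding protein transgelin and the most abundant transcript of the list, was at 2411, 1551, 1836 and 1089 FPKM and 3251, 2248, 3207, 4565 and 4289 FPKM. Wnk1f/f replicate 1 exceeded Wnk1d/d replicate 2. Its mean rose 2.04-fold (log2 fold change 1.04 ± 0.27 SE, limma adjusted p = 0.025), and its exons overlap those of *Pcsk7* on the other strand.

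Regulators of the thin filament, which control the access of myosin to actin, were called as well. *Tpm1* and *Tpm2*, the tropomyosins that lie along actin, rose from 1009 ± 305 to 2007 ± 399.9 FPKM (log2 fold change 1.03, limma adjusted p = 0.020) and from 594 ± 210.4 to 1269.8 ± 272 FPKM (1.15, limma adjusted p = 0.017). Fragments of related tropomyosin exons could be split between both genes, so that their separate levels are uncertain. *Cald1*, caldesmon, which holds myosin off actin, rose from 227 ± 58.9 to 456 ± 83.9 FPKM (1.02, limma adjusted p = 0.0092) without overlap. *Lmod1*, a leiomodin that seeds actin filaments, rose from 34.3 ± 11.1 to 66.0 ± 14.4 FPKM (0.95, limma adjusted p = 0.020). *Smtn*, smoothelin, an actin-associated protein of contractile smooth muscle, rose from 234 ± 56.7 to 362 ± 74.0 FPKM (0.63, limma adjusted p = 0.041). For both of these genes the libraries overlapped.

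Genes that set myosin phosphorylation were called on both the activating and the opposing side. *Mylk*, the light chain kinase, was at 655, 389, 539 and 366 FPKM in Wnk1f/f and 783, 663, 873, 1036 and 969 FPKM in Wnk1d/d libraries and rose 1.77-fold (limma adjusted p = 0.017). *Ppp1r12b*, a targeting subunit of myosin phosphatase, which removes that phosphate, rose by the same factor of 1.77 from 27.1 ± 8.05 to 47.9 ± 7.85 FPKM (limma adjusted p = 0.016). Kinase and this phosphatase subunit were thus both higher. Further subunit genes of the phosphatase, outside the list, did not pass. These were *Ppp1r12a* (means 51.0 and 62.7 FPKM, limma adjusted p = 0.069) and *Ppp1cb* (means 53.5 and 63.0 FPKM, limma adjusted p = 0.20). *Ppp1r14a*, encoding the phosphatase inhibitor CPI-17, had means of 128 ± 34.4 and 181 ± 44.0 FPKM and did not pass (log2 fold change 0.50, limma adjusted p = 0.12). *Prkg1*, the cGMP-dependent kinase that mediates relaxation, rose from 4.92 ± 1.01 to 6.98 ± 0.626 FPKM, a ratio of 1.42 (limma adjusted p = 0.027). *Hspb6*, a small heat shock protein phosphorylated during relaxation, had means of 23.4 ± 6.14 and 36.7 ± 8.61 FPKM and did not pass (limma adjusted p = 0.062).

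**Figure D2:**
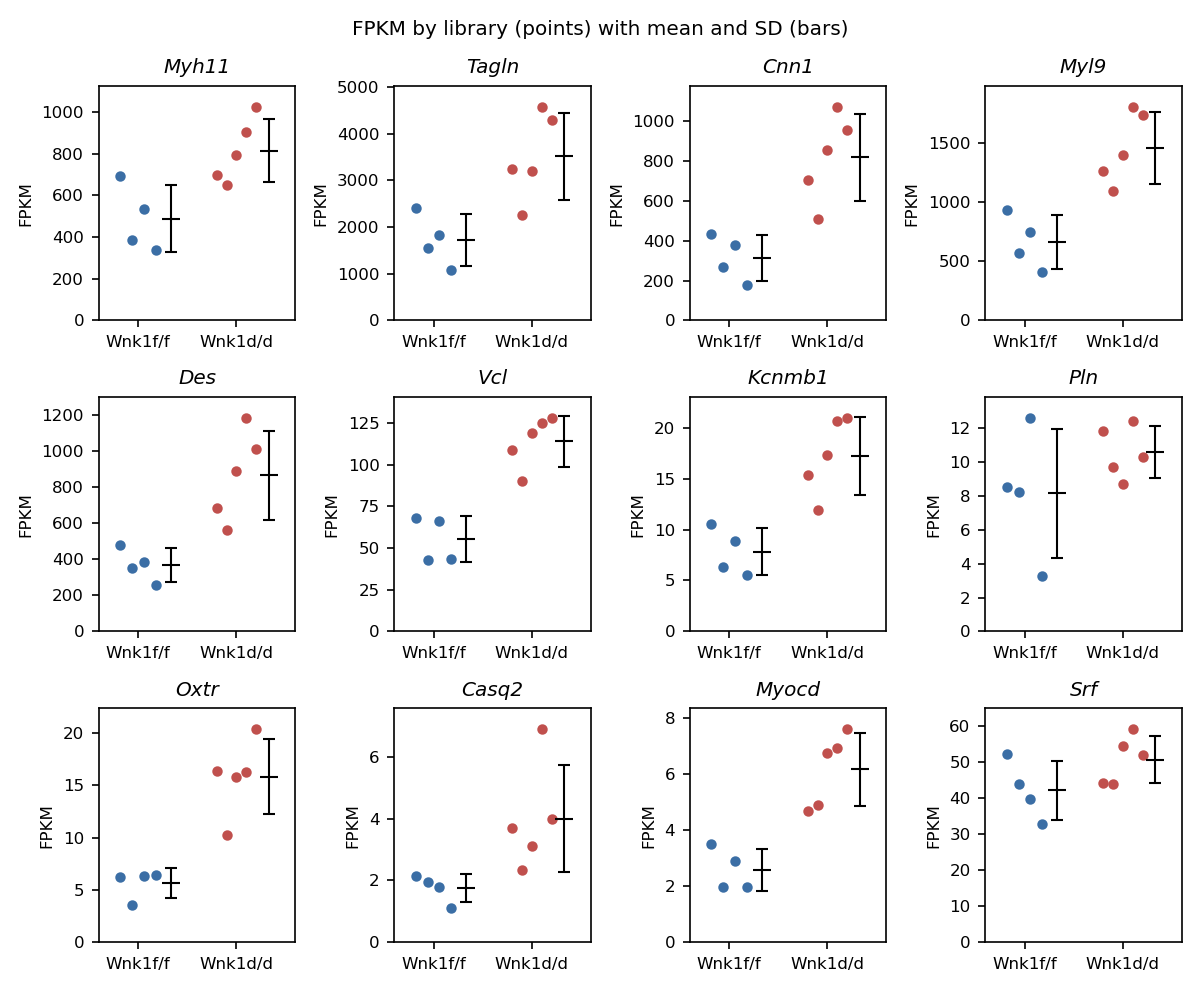
FPKM (vertical axes, from 0) of 12 genes in each Wnk1f/f (blue) and Wnk1d/d (red) library, with bars for the mean and SD. *Oxtr*, *Myocd*, *Vcl*, *Des*, *Cnn1*, *Myl9*, *Kcnmb1* and *Casq2* have no overlap between genotypes, and *Myh11*, *Tagln*, *Pln* and *Srf* overlap.

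Genes of dense bodies and adhesion plaques, the anchors of the actin filaments, were called higher for 11 of 12 and lower for 0, with a median log2 fold change of 0.85. The same 3 fits called 7, 10 and 5 of them higher. Of all tested genes 11.1% were higher with every library, and 5.66%, 7.53% and 3.64% in these fits. *Des* encodes desmin, the intermediate filament of muscle (chromosome 1, 75360329 to 75368579, plus strand, mm10). It was at 479, 355, 385 and 255 FPKM in Wnk1f/f and 687, 565, 889, 1183 and 1011 FPKM in Wnk1d/d libraries. All Wnk1d/d libraries exceeded all controls, and the mean rose 2.35-fold (log2 fold change 1.22 ± 0.24 SE, limma adjusted p = 0.010). *Synm*, synemin, which pairs with desmin in filaments, rose from 24.3 ± 8.21 to 44.8 ± 12.6 FPKM with overlapping libraries (0.87, limma adjusted p = 0.040), and its exons overlap those of *Ttc23*.

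*Vcl*, vinculin, links actin to adhesion plaques (chromosome 14, 20929398 to 21033676, plus strand, mm10). Values were 68.3, 43.0, 66.1 and 43.7 FPKM in controls and 109, 90.01, 119, 125 and 128 FPKM in Wnk1d/d uteri. The lowest Wnk1d/d library lay above the highest control, and the log2 fold change was 1.06 (standard error 0.17, limma adjusted p = 0.0053). *Actn1*, an alpha-actinin that crosslinks actin in dense bodies, had the smallest adjusted p of the list, with 114, 107, 111 and 81.9 FPKM in Wnk1f/f and 179, 162, 204, 188 and 184 FPKM in Wnk1d/d libraries. Its log2 fold change was 0.83 (standard error 0.11, limma adjusted p = 0.0028). *Flna*, filamin A, a crosslinker of actin networks, rose from 394 ± 92.7 to 646 ± 102 FPKM (0.73, limma adjusted p = 0.020). None of these actin-linking genes overlapped between genotypes.

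The LIM and PDZ-LIM proteins, which scaffold actin and alpha-actinin, were all called. *Csrp1* rose from 678 ± 199.9 to 1464 ± 314 FPKM (log2 fold change 1.13, limma adjusted p = 0.012), without overlap. *Pdlim3* rose from 239 ± 70.9 to 446 ± 108 FPKM, *Pdlim7* from 93.2 ± 19.97 to 154 ± 30.0 FPKM and *Ldb3* from 3.62 ± 1.70 to 7.86 ± 1.63 FPKM. These 3 genes had log2 fold changes of 0.91, 0.72 and 0.99 (limma adjusted p = 0.021, 0.020 and 0.021), and each had overlapping libraries. *Synpo2*, an actin-bundling protein, rose from 56.7 ± 15.0 to 100.1 ± 13.7 FPKM (0.83, limma adjusted p = 0.012). Of the membrane complex that joins the cytoskeleton to the matrix, *Sgcd*, delta-sarcoglycan, was called from 0.823 ± 0.335 to 2.01 ± 0.335 FPKM (limma adjusted p = 0.0096). *Sgcd* was tested only through its level in Wnk1d/d uteri, and it is among the 11 genes called here. *Dmd*, dystrophin, of the same complex, had means of 10.1 ± 1.77 and 13.3 ± 2.05 FPKM and did not pass (log2 fold change 0.36, limma adjusted p = 0.072).

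Channels, calcium stores and the oxytocin receptor, which set the calcium signal, gave 4 of 8 tested genes higher and 0 lower, with a median log2 fold change of 0.43. In the fits without Wnk1f/f replicate 4, without Wnk1d/d replicate 4 and without both, 2, 3 and 2 were higher. Of all tested genes 11.1% were higher with every library, and 5.66%, 7.53% and 3.64% in these fits. The largest fold change among them was in *Oxtr*, the oxytocin receptor (chromosome 6, 112473683 to 112489943, minus strand, mm10). It was at 6.26, 3.53, 6.38 and 6.43 FPKM in Wnk1f/f and 16.3, 10.3, 15.8, 16.2 and 20.3 FPKM in Wnk1d/d libraries. Wnk1f/f replicate 2 was the lowest and the other controls lay between 6.26 and 6.43 FPKM, while the lowest Wnk1d/d library was above all controls. Mean FPKM rose 2.80-fold (log2 fold change 1.34 ± 0.20 SE, limma adjusted p = 0.0046), and the permutation p, from an exact test, was 0.0079. *Oxtr* was past the threshold in all 20 alternative analyses, the only one of the 28 genes for which this was so.

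Both listed subunits of the BK potassium channel, which quiets smooth muscle, were called. *Kcnmb1*, the beta subunit that raises the calcium sensitivity of the channel in smooth muscle, was at 10.6, 6.35, 8.83 and 5.51 FPKM in Wnk1f/f and 15.3, 11.9, 17.3, 20.7 and 20.9 FPKM in Wnk1d/d libraries. The genotypes did not overlap, and the log2 fold change was 1.06 (standard error 0.20, limma adjusted p = 0.0094). *Kcnma1*, the pore-forming subunit, was at 3.10 ± 0.396 and 4.06 ± 0.241 FPKM and rose by a ratio of 1.31 (limma adjusted p = 0.032). *Kcnmb2*, a further beta subunit outside the list, went the other way at low level. Its means were 0.56 FPKM in Wnk1f/f and 0.088 FPKM in Wnk1d/d (exact permutation p = 0.0079), below the filter for limma. *Cacna1c*, the pore of the L-type channel through which calcium enters, had means of 14.9 ± 3.90 and 19.0 ± 2.43 FPKM and did not pass (0.36, limma adjusted p = 0.12).

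Of the 4 tested genes of the calcium store, *Casq2* was called. Calsequestrin 2 buffers calcium in the reticulum, and its FPKM was 2.15, 1.95, 1.79 and 1.12 in controls and 3.68, 2.34, 3.12, 6.88 and 3.97 in Wnk1d/d uteri, with replicate 4 standing above the other Wnk1d/d libraries (log2 fold change 0.81 ± 0.23 SE, limma adjusted p = 0.033). *Pln*, phospholamban, the brake on the calcium pump, varied widely among controls, from 3.28 to 12.6 FPKM, and did not pass (means 8.18 ± 3.82 and 10.6 ± 1.52 FPKM, limma adjusted p = 0.27), and its exons overlap those of *Cep85l*. *Itpr1*, the inositol trisphosphate receptor that releases stored calcium, had means of 13.2 ± 0.995 and 15.1 ± 1.61 FPKM and did not pass (0.17, limma adjusted p = 0.16), although its libraries did not overlap. *Mrvi1*, a PRKG1 substrate that restrains that receptor, had means of 44.6 ± 8.68 and 59.7 ± 7.93 FPKM and did not pass (0.42, limma adjusted p = 0.057). *Ryr2*, a ryanodine receptor and the untested gene, was at 0.470, 0.510, 0.380 and 0.810 FPKM in Wnk1f/f and 0.260, 0.580, 0.260, 0.170 and 0.280 FPKM in Wnk1d/d libraries. These low values overlapped, and the mean was lower in Wnk1d/d, at 0.31 against 0.54 FPKM (exact permutation p = 0.0635).

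**Figure D3:**
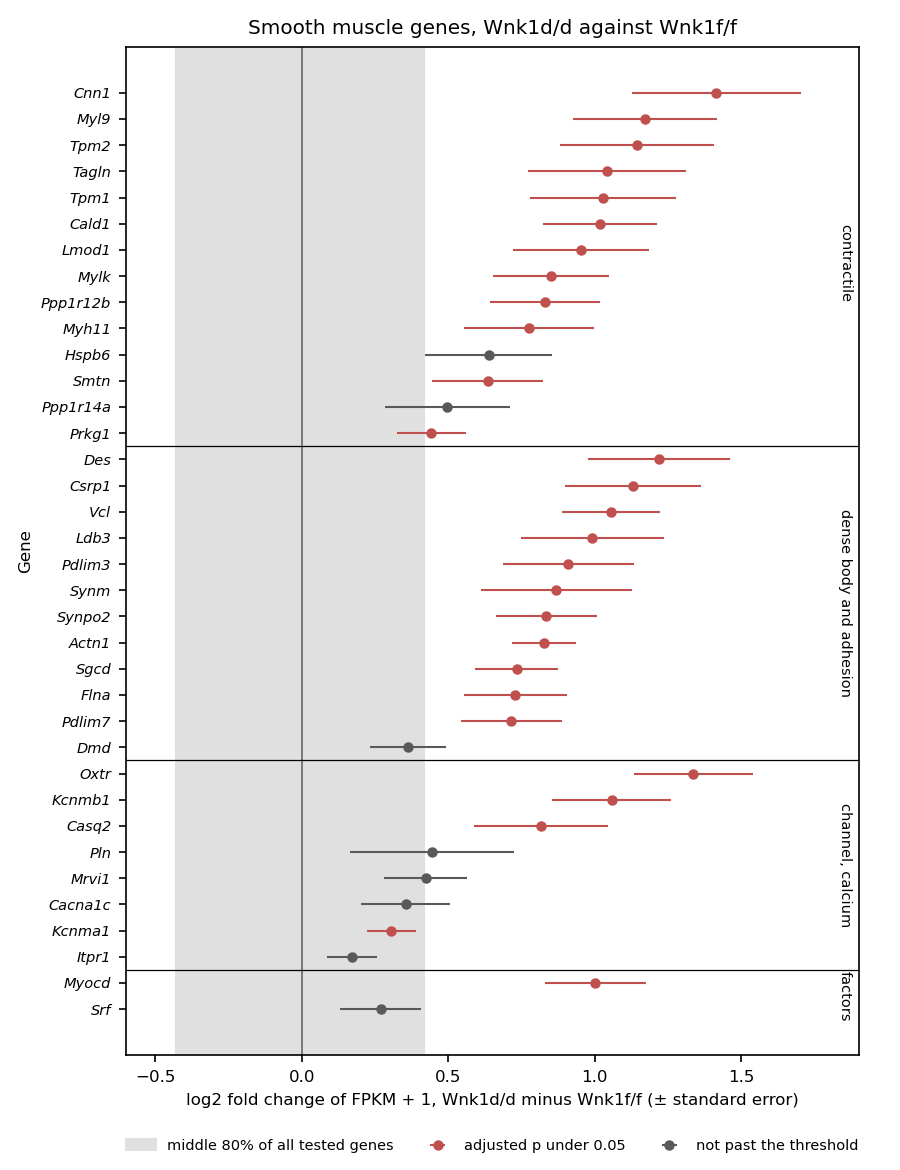
Log2 fold change of FPKM + 1 (horizontal axis, Wnk1d/d minus Wnk1f/f, bars show the standard error) for the 36 tested genes (vertical axis, by role), in red where the limma adjusted p was under 0.05, with the range of 80% of all tested genes in gray. All points lie right of 0, from 0.17 for *Itpr1* to 1.41 for *Cnn1*.

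Libraries differed in the level of the whole list. Summed FPKM of the 37 genes was 10900.5, 7278, 9003 and 5345 in Wnk1f/f replicates 1 to 4, and 14333, 11522, 15889, 20006 and 18996 in Wnk1d/d replicates 1 to 5. Wnk1f/f replicate 4, which contained the liver transcripts, was the lowest library for 23 of the 37 genes and Wnk1f/f replicate 2 for 13. Wnk1d/d replicate 4 was the highest for 18 and replicate 5 for 15. Relative to the control mean, the median log2 difference over the tested genes was 0.41, -0.15, 0.15 and -0.39 in Wnk1f/f libraries and 0.75, 0.49, 0.86, 1.07 and 1.05 in Wnk1d/d libraries. All 36 tested genes were above their control mean in each Wnk1d/d library. The part of the liver transcripts and of the dominant entry in these levels was not tested, and the counts without Wnk1f/f replicate 4, without Wnk1d/d replicate 4 and without both stand beside the counts over all libraries.

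Some genes were compared as partners within a library, as 9 pairs that were picked once the values of these genes were known. *Cnn1* relative to *Myh11* was 0.527 to 0.705 in Wnk1f/f and 0.783 to 1.18 in Wnk1d/d libraries, with no overlap (log2 shift 0.64, exact permutation p = 0.0159, 0.0714 after adjustment over the 9 pairs). *Actg2* relative to *Acta2*, the enteric and vascular smooth muscle actins, was 0.409 to 0.623 and 0.841 to 1.06, again without overlap (0.86, exact permutation p = 0.0079, adjusted p = 0.0714). *Kcnmb1* relative to *Kcnma1* was 1.86 to 3.08 and 2.99 to 5.39, which overlap (0.75, exact permutation p = 0.0238, adjusted p = 0.0714). These 3 pairs had the smallest p-values, and none of the 9 passed 0.05 after adjustment. The smallest possible exact p for 4 against 5 libraries is 0.0079, which for 1 pair alone becomes 0.0714 over 9 pairs. No pair could therefore pass on its own, and no conclusion is drawn from the adjusted values. *Mylk* relative to *Ppp1r12b* was 16.0 to 20.5 and 16.2 to 21.0 (shift 0.02, exact permutation p = 0.881). The shift was 0.12 for *Tpm2* relative to *Tpm1* and -0.33 for *Ppp1r14a* relative to *Ppp1r12b* (exact permutation p = 0.167 and 0.103). It was 0.56 for *Oxtr* relative to *Myh11* and 0.64 for *Casq2* relative to the calcium pump gene *Atp2a2* (exact permutation p = 0.0635 for each), and 0.27 for *Pln* relative to *Atp2a2* (exact permutation p = 0.571).

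**Figure D4:**
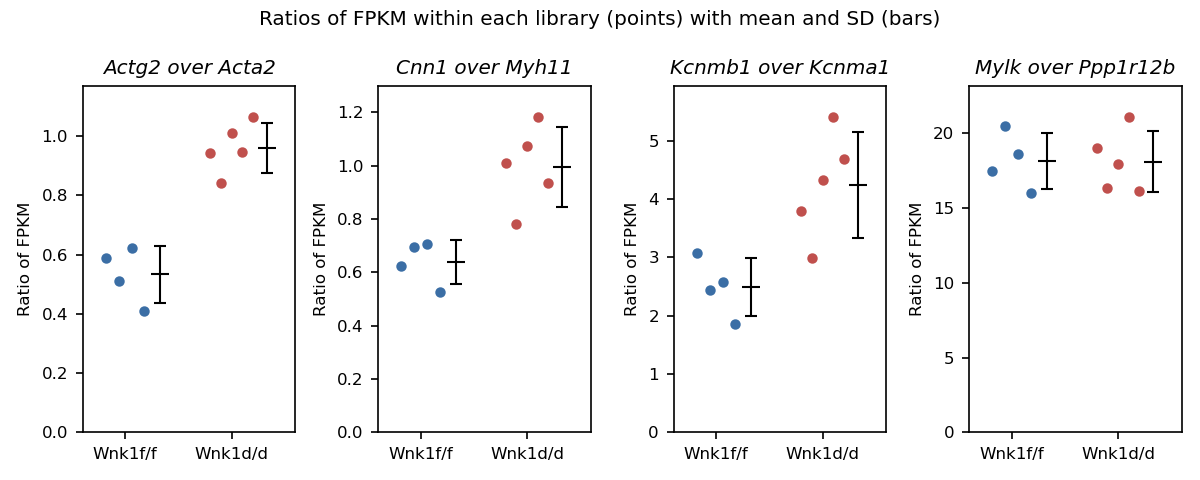
Ratio of FPKM of 2 genes within each library (vertical axes, from 0) for 4 of the 9 pairs, in Wnk1f/f (blue) and Wnk1d/d (red), with bars for the mean and SD. *Actg2* over *Acta2* and *Cnn1* over *Myh11* are higher in every Wnk1d/d library, *Kcnmb1* over *Kcnma1* overlaps slightly, and *Mylk* over *Ppp1r12b* covers 16.0 to 20.5 and 16.2 to 21.0.

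Beyond the 37 genes, 90 further smooth muscle genes were listed by role, and 85 were tested. Of these 26 rose and 9 fell, with a median log2 fold change of 0.21. Among all tested genes 11.1% rose and 11.0% fell, and the share of the 85 that fell is near that of the background. Without Wnk1f/f replicate 4, 18 rose and 7 fell, without Wnk1d/d replicate 4, 20 rose and 9 fell, and without both, 6 rose and 4 fell. Contractile genes gave 4 of 17 higher, which were *Actg2*, *Acta2*, *Cnn2* and *Rock2*. *Actg2* was at 873, 525, 806 and 273 FPKM in Wnk1f/f and 2007, 1478, 2519, 2882 and 3004 FPKM in Wnk1d/d libraries, without overlap (log2 fold change 2.03 ± 0.35 SE, limma adjusted p = 0.0067). *Acta2* rose from 1117 ± 354 to 2451 ± 521 FPKM (1.17, limma adjusted p = 0.013), and the coding sequences of actins are so alike that fragments may be split among them. Dense body and adhesion genes gave 16 of 27 higher, with a median of 0.48. Among them were the integrin *Itga5* (1.30), the LIM protein *Fhl1* (1.12) and *Pgm5*, a vinculin-associated protein (0.91). Without both replicates numbered 4, 4 of the 27 were called higher, where 3.64% of all tested genes were.

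Channels and receptors outside the list were called in both directions, 3 of 27 higher and 6 lower, where 11.1% of all tested genes were higher and 11.0% lower, and the share called higher is that of the background. *Jph2*, junctophilin, which ties the store to the membrane, rose (log2 fold change 1.22, limma adjusted p = 0.011), as did the calcium pump *Atp2b4* (0.56) and the prostaglandin receptor *Ptger3* (0.50). The chloride channel *Ano1* (-0.74), the potassium channel subunits *Abcc9* (-0.64) and *Kcnj8* (-0.48), the guanylate cyclase subunits *Gucy1a3* (-0.52) and *Gucy1b3* (-0.46) and the phosphodiesterase *Pde5a* (-0.73) fell. Transcription regulators gave 3 of 14 higher and 3 lower, the former being *Gata6*, *Prrx1* and *Tead3* and the latter *Foxp1*, *Heyl* and *Tbx3*.

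Markers of other cell types moved with genotype as well, where 11.1% of all tested genes were higher and 11.0% lower. Pericyte markers, the mural cells that share some contractile genes, were lower for 6 of 8 and higher for *Cspg4*, with summed FPKM of 284 to 330.3 in Wnk1f/f and 263 to 345 in Wnk1d/d libraries. The uncalled *Mcam* held much of these sums, at 118 to 194 FPKM in Wnk1f/f and 162 to 233 FPKM in Wnk1d/d libraries. Endothelial markers were lower for 6 of 8, with sums of 433 to 481 and 176 to 364. Stromal markers were higher for 3 of 9 and lower for 5, with sums of 2603 to 3092 and 2743 to 3325, and epithelial markers were higher for 2 of 8, with sums of 731 to 1031 and 757 to 1292. Skeletal muscle markers were higher for 4 of 5 tested, with sums of 94.6 to 220 and 331 to 569.9, and the defining genes *Myh1*, *Myh2*, *Myh4* and *Myod1* were under 0.1 FPKM in every library. The actin gene *Acta1* held much of these sums, at 60.4 to 168 FPKM in Wnk1f/f and 235 to 399 FPKM in Wnk1d/d libraries. Its fragments may be split with those of other actins. Without both replicates numbered 4, 3 pericyte, 3 endothelial and 4 stromal markers were lower, and 3 stromal, 1 epithelial and 3 skeletal muscle markers were higher. In that fit 3.64% of all tested genes were higher and 4.15% lower. The part of these cell types in the smooth muscle levels was not tested.

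**Figure D5:**
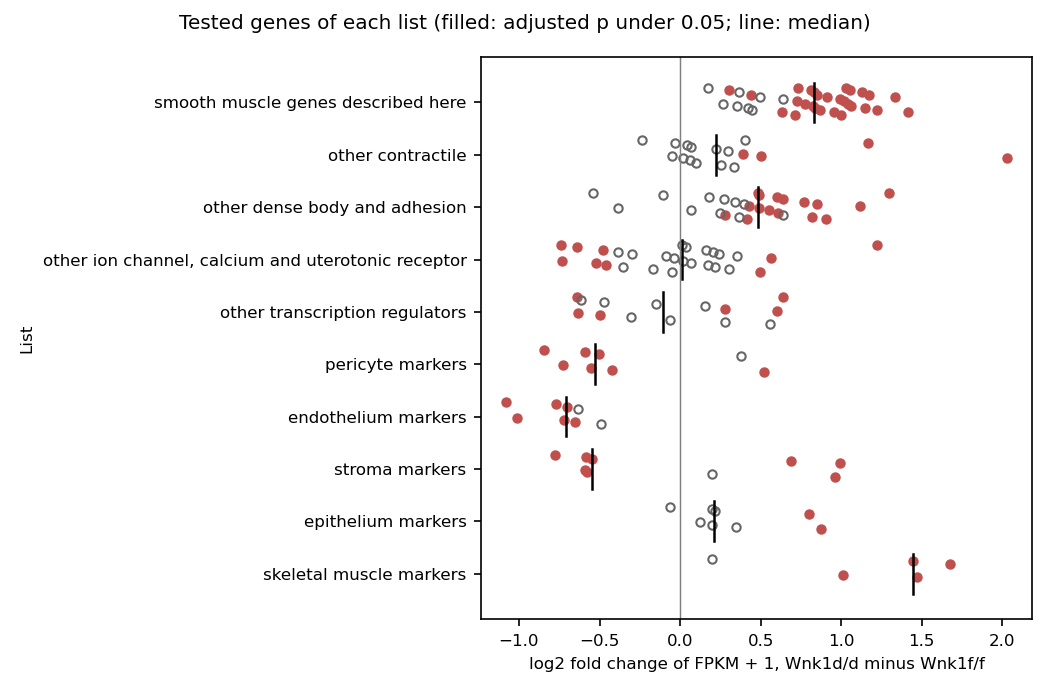
Log2 fold change of FPKM + 1 (horizontal axis, Wnk1d/d minus Wnk1f/f) of each tested gene in the 37-gene list, in the further smooth muscle lists and in markers of other cell types (vertical axis), filled where the limma adjusted p was under 0.05, with a line at each median. The median is 0.83 for the 37-gene list, 0.48 for further dense body and adhesion genes, 0.01 for further channels, -0.53 for pericyte and -0.71 for endothelial markers.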

How the data were processed

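Uterine RNA of 4 Wnk1f/f and 5 Wnk1d/d mice was sequenced by the authors with a TruSeq RNA kit, and reads were aligned to mm10 with TopHat2 2.0.4. The authors deposited 1 table of FPKM with 31274 entries, from Cufflinks (2.0.2 in the submitters' processing notes), with replicates not pooled. The gene annotation and strand setting are not given in the sources used here, and exons of 14 of the 37 genes overlap another annotated gene (GENCODE, mm10). No column of other samples was present.

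Genes whose mean exceeded 1 FPKM in either genotype were tested on log2(FPKM + 1) with limma 3.58.1 in R 4.3.3 (lmFit, then eBayes with trend). The fit was unpaired, and p-values of the 14728 genes were adjusted by Benjamini-Hochberg. Fold changes on this scale understate those of low genes. For single genes and pair ratios, exact permutation tests (two-sided) were run in Python 3.11.15 with SciPy 1.17.1. Simulated data were used to test the limma code. P-values measure the spread between mice of each genotype.

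Genes, gene lists and tests were chosen with earlier results of these data known. All 37 genes are named. From the further smooth muscle genes the rule named *Acta2*, *Actg2* and the 4 called genes with the largest change, whereas further names were picked once values were known. Alternatives left out each library in turn, added a replicate block, set the pseudocount to 0.1 or 0.01, the filter to none or 5 FPKM and the ratio to 1.25 or 2, scaled libraries by medians or quantiles, and ran limma robustly, without trend or with library weights. Leaving out both replicates numbered 4 was added after seeing the data. Replicate numbers shared by the genotypes belong to different mice. Depth cannot be read from FPKM, and the worth of 1 fragment, from 6 low entries, differed by up to 1.38 times between libraries.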

Additional observations from a re-analysis of the deposited data

Results flagged for a closer look

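Single libraries were set apart from the rest of their genotype by Dixon's 95% value in 3 of 80 groups of values tested, where chance gives about 1 in 20 groups. *Ryr2* was at 0.580 FPKM in Wnk1d/d replicate 2 and at 0.170 to 0.280 FPKM in the other Wnk1d/d libraries. *Itpr1* was at 17.8 FPKM in the same library and at 14.0 to 15.1 FPKM in the others. Both genes encode calcium release channels. *Oxtr* was at 3.53 FPKM in Wnk1f/f replicate 2 and at 6.26 to 6.43 FPKM in the other controls.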

How the results depend on the processing

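Each of the 36 tested genes kept a log2 fold change above 0 in every alternative in which it was tested (20, or 19 for *Casq2*, *Kcnma1* and *Sgcd*, which are below the filter at 5 FPKM), and 18 of the 28 called genes missed the threshold in at least 1 alternative other than the replicate block. Leaving out 1 library at a time gave 17 to 31 genes higher, 17 to 27 with the ratio of 1.5, a median log2 fold change of 0.72 to 0.99, and -0.55 to -0.50 for *Wnk1*. Leaving out both replicates numbered 4 gave 10 genes higher, all 10 with that ratio, and a ratio of 2 left 14 of the 26. With a replicate block, 1 gene (*Oxtr*) was called higher and met the ratio, where calls over all genes went from 3249 to 220, and *Wnk1* kept its log2 fold change of -0.52 with a limma adjusted p of 0.052. Same-numbered libraries did not deviate together (correlations -0.087, -0.003, 0.022 and -0.268), so that they share only a number. The causes of these losses were not tested. Fits without some libraries also rested on fewer mice. No filter on FPKM gave 21 genes of 37 tested, and the other alternatives gave 25 to 30. Only without the filter was *Ryr2* tested, and its mean was lower in Wnk1d/d, at 0.31 against 0.54 FPKM.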

Other observations

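The tested genes outside the list whose library-to-library deviations from their genotype means most resembled those of the 37 genes were *Tbc1d1* (r = 0.979), *Jph2* (r = 0.979), *Myom1* (r = 0.978), *Mcam* (r = 0.976) and *Mir143hg* (r = 0.975), over 9 libraries, which also share library composition. *Jph2* and *Mir143hg*, host gene of a microRNA cluster of smooth muscle, rose (log2 fold change 1.22 and 0.99, limma adjusted p = 0.011 and 0.020). *Tbc1d1*, *Myom1* and *Mcam* had log2 fold changes of -0.02, 0.39 and 0.38 and did not pass the test. Within the list, the likeness was highest for *Mylk* (0.990) and lowest for *Itpr1* (-0.30), *Oxtr* (0.57), *Mrvi1* and *Pln*.

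Among the smaller marker lists, *Nppa* rose and *Tnni3* fell of 3 tested cardiac markers, with summed FPKM of 14.4 to 18.6 in Wnk1f/f and 18.7 to 22.7 in Wnk1d/d libraries. Among all tested genes 11.1% rose and 11.0% fell. *Fabp4*, the 1 tested adipocyte marker, rose, with sums of 1.95 to 6.55 and 7.27 to 18.2, while *Plin1* and *Cidec* were under 0.1 FPKM in every library. *Lrrn4* rose and *Wt1* fell of 4 mesothelial markers, with sums of 60.5 to 87.4 and 65.2 to 114.6. The 5 liver markers summed to 4.90 to 117 in Wnk1f/f and 2.74 to 7.02 in Wnk1d/d libraries.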
